A study of Saccharomyces cerevisiae with 20 samples.

Results

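The proteins of the small (40S) ribosomal subunit of Saccharomyces cerevisiae are encoded by the 57 genes examined here, which run from RPS0A to RPS31 and include ASC1. They were taken by name from a table of 7127 genes. Their mRNA levels were compared in 20 libraries, 4 from each of 5 strains grown without treatment in synthetic complete glucose medium at 30 °C to an optical density of 0.8 to 1.1. By the labels, CEN.PK2 is MATa and carries MAL2-8c and SUC2 with the alleles trp1-289, ura3-52, leu2-3_112 and his3Δ1, and D273-10B is MATAlpha mal. RM11-1a is MATa leu2Δ0 ura3Δ0 HO::kanMX. W303 is MATa with the alleles his3-11,15, ura3-1 and can1-100, and also trp1-1 and leu2-3,112. BY4741 is MATa and carries ura3Δ0, met15Δ0, leu2Δ0 and his3Δ1. No strain is a control, so each was set against the mean of the other 4, and the 5 comparisons share libraries. The labels do not say whether the 4 replicates of a strain are separate cultures, so p-values measure the spread between libraries, which may be technical.

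The small subunit holds the decoding centre, where codon and anticodon meet, and it receives the mRNA and the initiation factors. Its proteins are made in large and nearly equal amounts in growing yeast, and their genes are controlled together by Rap1, Fhl1, Ifh1 and Sfp1 under the kinases TORC1 and PKA. Most are kept as pairs of nearly identical paralogues, A and B, left from a duplication of the whole genome, while a few proteins are encoded by a gene with no copy. The ratio of A to B mRNA in a library compares genes for the same ribosomal position and does not depend on the library's total.

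Of the 57 genes, 48 form 24 A/B pairs and 9 have no copy, among them RPS2, RPS3, RPS12, RPS15, RPS20 and ASC1. An intron lies in 37 of the 57. Reads can be assigned to A or B only where their sequences differ, and pairs vary in how much they differ. The sequences below show a pair that is close to identical and 2 pairs that are not, because the strain comparisons turn on them. They are coding sequences from the RefSeq R64 genome, with introns removed, read from the start codon, and capitals mark the bases at which A and B differ. For RPS6A (YPL090C, chrXVI:377291-378395, minus strand) and RPS6B (YBR181C, chrII:591712-592774, minus strand), bases 1 to 181 of 711 are shown. These hold 3 of the pair's 6 differences.
RPS6A: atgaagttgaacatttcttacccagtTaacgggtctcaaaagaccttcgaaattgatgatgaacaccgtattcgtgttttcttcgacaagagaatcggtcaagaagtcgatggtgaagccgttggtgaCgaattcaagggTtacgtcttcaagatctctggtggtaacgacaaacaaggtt
RPS6B: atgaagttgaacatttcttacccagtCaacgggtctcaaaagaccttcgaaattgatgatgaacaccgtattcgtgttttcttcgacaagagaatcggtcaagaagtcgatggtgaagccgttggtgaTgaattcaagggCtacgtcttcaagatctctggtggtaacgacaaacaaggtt

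RPS27A (YKL156W, chrXI:158613-159212, plus strand) and RPS27B (YHR021C, chrVIII:147871-148669, minus strand) are the least alike of the 24 pairs. They differ at 39 of 249 coding bases, spread over the whole gene.
RPS27A: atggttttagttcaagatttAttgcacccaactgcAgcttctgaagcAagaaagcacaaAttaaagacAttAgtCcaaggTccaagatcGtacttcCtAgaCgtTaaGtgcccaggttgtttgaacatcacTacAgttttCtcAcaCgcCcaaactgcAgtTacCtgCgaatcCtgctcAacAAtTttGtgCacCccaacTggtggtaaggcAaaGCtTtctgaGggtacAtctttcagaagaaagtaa
RPS27B: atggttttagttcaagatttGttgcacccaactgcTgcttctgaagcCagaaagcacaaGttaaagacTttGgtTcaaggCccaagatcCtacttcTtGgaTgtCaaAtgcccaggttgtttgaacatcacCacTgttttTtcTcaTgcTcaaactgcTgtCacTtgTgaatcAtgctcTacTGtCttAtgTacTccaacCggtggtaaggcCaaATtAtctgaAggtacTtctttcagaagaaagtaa

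RPS28A (YOR167C, chrXV:648804-649007, minus strand) and RPS28B (YLR264W, chrXII:673131-673334, plus strand) have no intron and differ at 24 of 204 bases.
RPS28A: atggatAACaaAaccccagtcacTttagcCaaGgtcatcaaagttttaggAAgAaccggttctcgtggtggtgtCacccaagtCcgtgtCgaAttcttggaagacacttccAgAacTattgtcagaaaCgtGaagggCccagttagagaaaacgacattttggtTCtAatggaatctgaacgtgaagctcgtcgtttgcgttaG
RPS28B: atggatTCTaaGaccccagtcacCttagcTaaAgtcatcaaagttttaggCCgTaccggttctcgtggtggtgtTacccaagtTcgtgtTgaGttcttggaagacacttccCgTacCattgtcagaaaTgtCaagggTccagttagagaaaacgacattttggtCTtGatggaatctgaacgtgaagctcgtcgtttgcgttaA

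Coding identity within the 24 pairs ran between 84.3% for RPS27 and 99.2% for RPS6. For 75-base reads, the length sequenced here, 15 of the 24 pairs shared no window of their coding sequence. Shared windows made up 63.1% of RPS6A, 29.1% of RPS4A and 26% of RPS24A, and 6.1% or less in RPS19, RPS14, RPS23 and RPS9. How reads that fit several genes were counted is not given in the sources used here, so levels and ratios of the 9 pairs with shared windows are uncertain to that extent. The introns of RPS22B and ASC1 hold the small nucleolar RNA genes SNR44 and SNR24, the library protocol does not mark strand, and whether counting used exons only is not given.

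Library totals ranged between 1311322 and 22979469 counts, and every one of the 57 genes passed the filter on low counts, with 169 counts as the lowest value of any of them in any library. The labels' markers matched the files in general. MET17 was at 3 counts or fewer in BY4741, STE2 and MFA2 were low in the MATAlpha strain D273-10B, and LEU2 was at 0 in BY4741 and RM11-1a. In RM11-1a replicate 2, HO had 408 counts against 2, 1 and 2 in the other RM11-1a libraries, which goes against the HO::kanMX label. Per 1e+06 counts, MET17 was at 76.9 in that library, against 372, 211 and 360 in the other RM11-1a libraries. MET17 also varied within CEN.PK2, between 47.1 and 667. Whether RM11-1a replicate 2 is what its label says was not tested, and the main results for RM11-1a are given with and without it. D273-10B replicate 1 stood apart from its strain in the amount of these mRNAs. Libraries also differed in how strongly long genes were represented: the slope of log2 CPM (counts as a share of the library total, scaled to 1e+06) on exon length ran between -0.34 and 0.43 per doubling of length, and ribosomal protein genes are short.

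Together the 57 mRNAs made up 10.9% to 27.6% of a library's counts, and the spread lay mostly inside 2 strains. The share was 17.5%, 14.2%, 20.5% and 27.6% in CEN.PK2 (19.9% ± 5.7, SD, n = 4) and 10.9%, 19.2%, 25.5% and 23.5% in D273-10B (19.8% ± 6.45), in the order of replicates 1 to 4 used throughout. It was 15.8%, 15.1%, 12.2% and 12.8% in RM11-1a (14% ± 1.76), 15.2%, 16%, 14.1% and 16.4% in W303 (15.4% ± 1.04) and 13.9%, 15.5%, 15.7% and 14.8% in BY4741 (15% ± 0.799). CEN.PK2 and D273-10B thus held the highest libraries, but also libraries at or below those of the other 3 strains, so the groups overlapped. Counting error was small beside this, at most 0.06 percentage points on either side (95% Wilson interval), and covers counting only, since the protocol had no molecular identifiers.

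The small-subunit mRNAs kept a narrow proportion to those of the large (60S) subunit. Summed over the 82 RPL and RPP genes, the large-subunit share ran between 13% and 32.8%, and the ratio of small to large stayed between 0.757 and 0.887 in all 20 libraries. The libraries with the highest shares had negative length slopes (CEN.PK2 replicate 4 at -0.34, D273-10B replicate 3 at -0.13 and replicate 4 at -0.23). The lowest had the steepest positive slope (D273-10B replicate 1 at 0.43), while RM11-1a replicates 3 and 4, with low shares, had slopes of -0.33 and -0.21. The part of length representation in the shares was not tested beyond the length-corrected values given below.

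**Figure D1:**
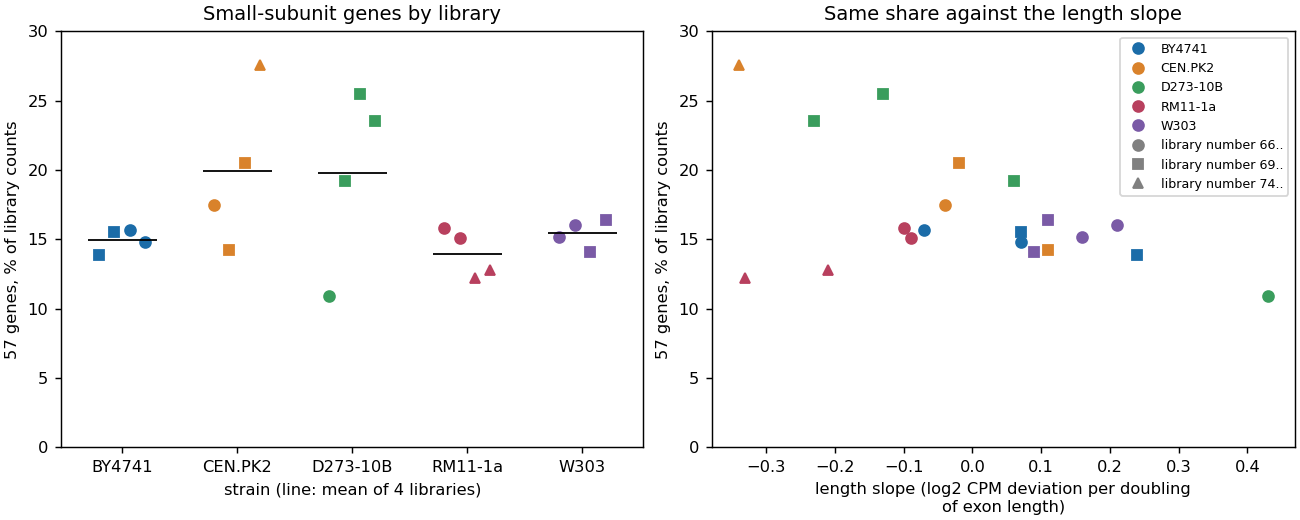
Share of the 57 small-subunit genes in the counts of each library (%), by strain (left; lines are means of 4 libraries) and against the slope of log2 CPM on exon length (right); symbols give the first digits of the library number. CEN.PK2 replicate 4 is highest at 27.6% and D273-10B replicate 1 lowest at 10.9%, at opposite ends of the range of slopes.

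Levels within the set differed widely even though the proteins are needed in equal numbers. Per kilobase of coding sequence, the median gene had a mean level over 20 libraries of 5670 CPM per kilobase (RPKM). The lowest were RPS9A with 555 RPKM and RPS27A with 780 RPKM, each the minor copy of a pair, then RPS22B with 1330 and RPS14B with 1460 RPKM. Between the lowest and the highest library, a gene's CPM varied 3.77-fold at the median, with RPS3 the steadiest (2.04-fold) and RPS20 the most variable (15.8-fold).

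A difference among the 5 strains was called for 11 of the 57 genes, or 19.3% (edgeR quasi-likelihood F test, Benjamini-Hochberg adjusted p under 0.05 over 6119 genes). The same test called 28.4% of all genes tested and 21 of the 82 large-subunit genes (25.6%), so the share among the small-subunit genes was not above the background. The 11 were RPS20, RPS12, RPS28B, RPS28A, RPS29A, RPS9A, RPS26B, RPS1B, RPS2, RPS22A and RPS25A, with adjusted p between 0.0021 and 0.0475. By position in the subunit, they included 3 of the 15 genes for the head and beak (RPS12, RPS20 and RPS29A), 4 of the 12 for the platform and the E site, where the deacylated tRNA leaves (RPS1B, RPS26B, RPS28A and RPS28B), and 1 of the 6 for the decoding centre and the mRNA path (RPS2). Among the 9 genes with no copy, 3 were called. The 11 became 49 without D273-10B replicate 1 and 31 without CEN.PK2 replicate 2. The former fit called 49.8% of all genes, so there the share among the 57 was above the background. D273-10B replicate 1 had the lowest summed share of these mRNAs (10.9%), so that fit cannot tell whether the 57 differ more than other genes. No share over all genes is set beside the 31. The count was between 3 and 7 without any 1 of BY4741 replicates 1 to 4, D273-10B replicates 2 and 3, RM11-1a replicates 3 and 4 and W303 replicate 3.

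RPS20 (YHL015W, chrVIII:75412-75777, plus strand, no intron, no copy) encodes a protein of the head of the subunit, and it differed most among the strains. Its level was 500, 1600, 2130 and 2590 CPM in W303 (1710 ± 899, SD, n = 4). In CEN.PK2 it was 351, 1770, 574 and 673 CPM (842 ± 634), and in D273-10B 171, 683, 1150 and 595 CPM (651 ± 403). It was 163, 224, 216 and 302 CPM in RM11-1a (226 ± 57.1) and 222, 252, 295 and 241 CPM in BY4741 (252 ± 31.1). All 4 libraries of W303, and all 4 of CEN.PK2, lay above all 8 of RM11-1a and BY4741, while D273-10B overlapped each of the other 4 strains. RPS20 was higher in W303 than in the other 4 strains by 1.86 on the log2 scale (SE 0.381, edgeR adjusted p = 0.00663), and lower in RM11-1a by -1.76 (SE 0.483, adjusted p = 0.0223).

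Between strains taken in pairs, RPS20 was higher in W303 than in RM11-1a by 2.9 (SE 0.577, edgeR adjusted p = 0.00342) and than in BY4741 by 2.73 (SE 0.573, adjusted p = 0.0109). It was the 1 small-subunit gene called in each of these 2 comparisons, where 5.82% and 1.31% of all genes were called higher. W303 was not called against CEN.PK2 (0.83, SE 0.54, edgeR adjusted p = 0.362) or D273-10B (0.99, SE 0.542, adjusted p = 0.238), nor RM11-1a against BY4741 (-0.17, SE 0.537, adjusted p = 0.908). Without RM11-1a replicate 2, RPS20 was higher in W303 than in RM11-1a by 2.91 (edgeR adjusted p = 0.00533). Within libraries whose numbers begin with 66, RPS20 averaged 1050 CPM in 2 W303 libraries, against 351, 171, 194 and 268 CPM in CEN.PK2, D273-10B, RM11-1a and BY4741. Within those beginning with 69, the W303 mean was 2360 CPM, against 1170 in CEN.PK2, 811 in D273-10B and 237 in BY4741.

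The difference among strains passed the threshold in all 28 alternatives run for RPS20, with adjusted p no higher than 0.023. The single-strain calls were less firm. The W303 call was lost without W303 replicate 4 (1.53, edgeR adjusted p = 0.0857), and the RM11-1a call without RM11-1a replicate 1 (-1.62, adjusted p = 0.0727), replicate 3 (-1.74, adjusted p = 0.0964) or replicate 4 (-1.9, adjusted p = 0.0601). It was also lost with a block for how the library number begins (-1.39, edgeR adjusted p = 0.108) and without the libraries numbered from 74 (-1.9, adjusted p = 0.339). Without RM11-1a replicate 2 it held (-1.77, edgeR adjusted p = 0.0414). Libraries numbered 6986, 6987 and 6988 (CEN.PK2 replicate 2 and W303 replicates 3 and 4) include the 3 highest values. Without these 3, a choice made after seeing the data, the strain difference had an edgeR adjusted p of 0.023, W303 was at 1.23 (adjusted p = 0.342) and RM11-1a at -1.48 (adjusted p = 0.0577).

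**Figure D2:**
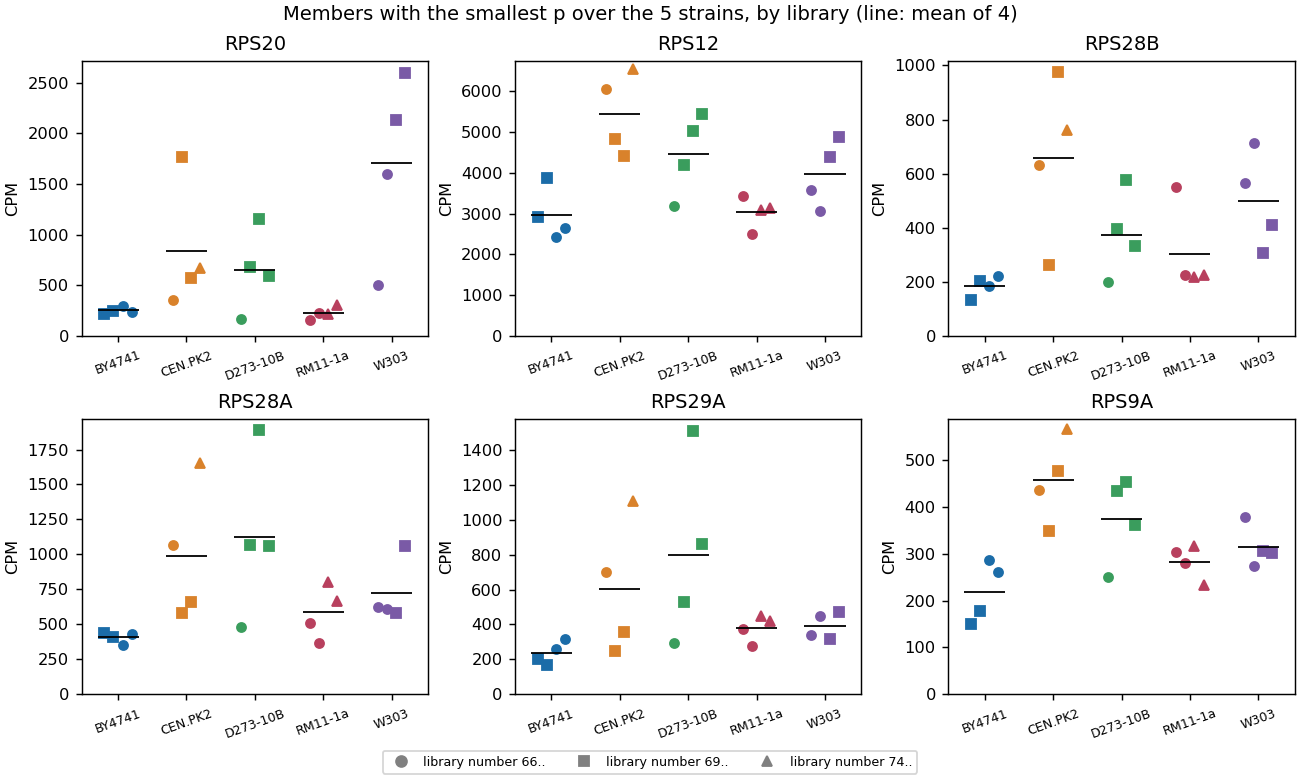
CPM in each library for the 6 small-subunit genes with the smallest p over the 5 strains; lines are means of 4 libraries and symbols give the first digits of the library number. RPS20 separates the 4 W303 libraries (500 to 2590 CPM) from those of RM11-1a and BY4741 (163 to 302 CPM), and in the other 5 panels the libraries of CEN.PK2 and D273-10B spread widely, with CEN.PK2 above RM11-1a and BY4741 throughout for RPS12 and RPS9A.

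RPS12 (YOR369C, chrXV:1028194-1028625) encodes a protein of the beak and was highest in CEN.PK2. It had 6040, 4820, 4410 and 6530 CPM in CEN.PK2 (5450 ± 996, SD, n = 4), against 3190, 4190, 5030 and 5450 CPM in D273-10B, 3440, 2500, 3090 and 3140 CPM in RM11-1a, 3580, 3070, 4380 and 4870 CPM in W303 and 2920, 3860, 2430 and 2640 in BY4741. Every CEN.PK2 library was above every RM11-1a and BY4741 library, while those of D273-10B and W303 reached into the CEN.PK2 range. RPS12 was higher in CEN.PK2 than in the other 4 strains by 0.87 on the log2 scale (SE 0.245, edgeR adjusted p = 0.0461), a call that was lost in 19 of 27 alternatives and stood at 0.57 (adjusted p = 0.448) without the libraries numbered from 74. Its difference over all strains held without any 1 library (adjusted p = 0.0219 with all 20) and was lost with a block for how the library number begins (adjusted p = 0.0511) and without the libraries numbered from 74 (adjusted p = 0.131).

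RPS28 sits near the exit of the mRNA channel, and in yeast the RPS28B protein also controls decay of its own mRNA. RPS28B had 632, 263, 974 and 761 CPM in CEN.PK2 (658 ± 298, SD, n = 4), against 199, 395, 575 and 332 CPM in D273-10B, 550, 225, 218 and 225 CPM in RM11-1a, 567, 712, 308 and 409 CPM in W303 and 132, 205, 185 and 223 in BY4741. RPS28A had 482, 1070, 1890 and 1060 CPM in D273-10B (1130 ± 581), against 1070, 581, 660 and 1650 CPM in CEN.PK2, 511, 367, 805 and 669 CPM in RM11-1a, 627, 612, 583 and 1060 CPM in W303 and 439, 406, 353 and 434 in BY4741. Both copies were lowest in BY4741, whose RPS28B values all lay below those of CEN.PK2 and W303 and whose RPS28A values all lay below those of CEN.PK2, D273-10B and W303. In edgeR's test against the other 4 strains, RPS28B was higher in CEN.PK2 by 1.33 (SE 0.356, adjusted p = 0.0346) and RPS28A in D273-10B by 1.07 (SE 0.349, adjusted p = 0.0371). The strain difference of RPS28A passed in all 27 alternatives, with adjusted p up to 0.0497, and that of RPS28B in 23 of 27. The CEN.PK2 call of RPS28B was lost in 9 of 27 alternatives, among them the replicate block (edgeR adjusted p = 0.0761) and the length correction (0.96, adjusted p = 0.0716), and the D273-10B call of RPS28A in 10 of 27, with adjusted p up to 0.367.

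RPS29A encodes a small zinc-binding protein of the head. It had 291, 527, 1510 and 859 CPM in D273-10B (798 ± 531, SD, n = 4), against 703, 249, 356 and 1110 CPM in CEN.PK2, 375, 277, 449 and 418 CPM in RM11-1a, 339, 449, 316 and 469 CPM in W303 and 202, 167, 262 and 315 in BY4741. Its D273-10B excess over the other 4 strains was 1.34 (SE 0.392, edgeR adjusted p = 0.021), and it was 0.77 without D273-10B replicate 3 (adjusted p = 0.318), the library with the highest value, and 1.26 without replicate 4 (adjusted p = 0.0607). RPS9A is the minor gene for a protein at the mRNA entry. It had 437, 349, 477 and 567 CPM in CEN.PK2 (457 ± 90.5), against 250, 435, 454 and 362 CPM in D273-10B, 304, 280, 316 and 233 CPM in RM11-1a, 378, 307 and 302 CPM in W303 replicates 1, 3 and 4, with replicate 2 the lowest of that strain, and 150, 178, 286 and 262 in BY4741. All CEN.PK2 libraries exceeded all BY4741 and RM11-1a libraries. RPS9A was higher in CEN.PK2 than in the other 4 strains by 0.91 (SE 0.262, edgeR adjusted p = 0.048), a call that was lost in 19 of 27 alternatives, 15 of them fits that left out 1 library.

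The medians of the 57 genes lay away from 0 in each strain, though few genes passed the test alone. The median log2 fold change of the 57 genes against the other 4 strains was 0.66 in CEN.PK2, 0.59 in D273-10B, -0.45 in RM11-1a, -0.31 in W303 and -0.46 in BY4741. Over all genes tested the medians were 0, 0.11, -0.09, -0.01 and -0.04, and over the 82 large-subunit genes 0.66, 0.56, -0.47, -0.26 and -0.49, close to those of the small subunit. All 57 values were positive in CEN.PK2 and none was in RM11-1a; 53 were positive in D273-10B, 9 in W303 and 3 in BY4741. These medians moved with the length correction, to 0.29, 0.27, -0.48, 0.05 and -0.1, so the sign of the W303 median flipped. Without the 3 libraries whose numbers begin with 74 (CEN.PK2 replicate 4 and RM11-1a replicates 3 and 4), they were 0.19, 0.68, -0.24, -0.22 and -0.38. Without RM11-1a replicate 2, the RM11-1a median was -0.47.

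**Figure D3:**
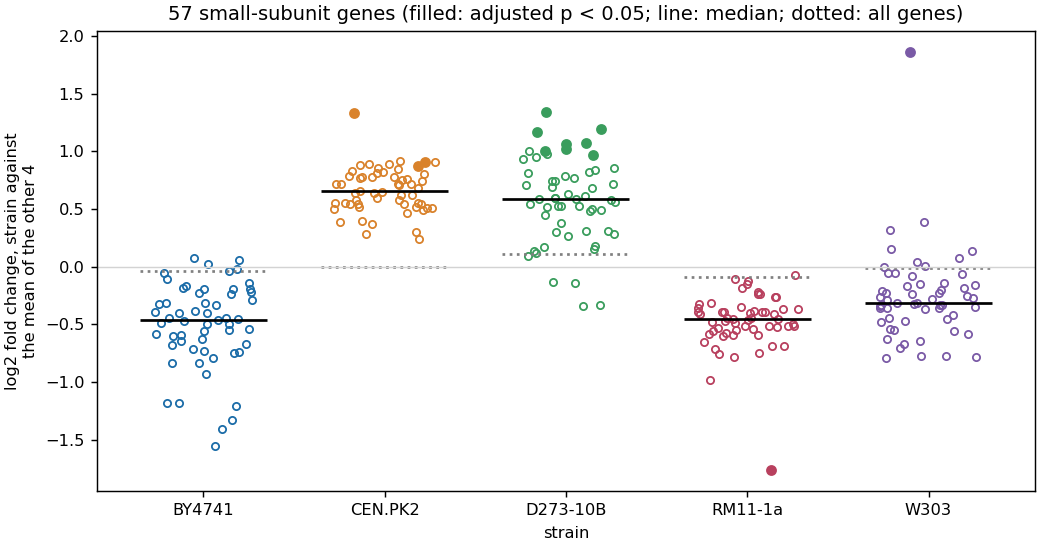
log2 fold change of each of the 57 small-subunit genes in a strain against the mean of the other 4 strains; filled points had an adjusted p under 0.05, black lines are the medians of the 57 and dotted lines those of all genes tested. The points sit above 0 in CEN.PK2 and mostly in D273-10B, and RPS20 stands apart as the lowest point in RM11-1a (-1.76) and the highest in W303 (1.86).

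In CEN.PK2, 3 of the 57 genes were higher and passed the test (RPS28B, RPS9A and RPS12), or 5.26%, against 3.5% of all genes called higher. The values ran between 0.24 for RPS4B, a protein of the body, and 1.33 for RPS28B. The 3 became 8 without CEN.PK2 replicate 2, with no share over all genes set beside the 8. They became 0 without BY4741 replicate 1, CEN.PK2 replicates 1, 3 or 4, RM11-1a replicate 4 or W303 replicate 3. They became 1 without BY4741 replicate 4, D273-10B replicate 2, RM11-1a replicates 1 or 3, or W303 replicates 1 or 2. Against BY4741 alone, 8 genes were higher in CEN.PK2 (RPS28B by 2.19, RPS20 by 1.9, RPS22A by 1.45, RPS9A by 1.4, RPS12 by 1.21, and RPS28A, RPS25A and RPS27B each by at least 1.66), or 14%, where 4.15% of all genes were called higher and 12 of the 82 large-subunit genes (14.6%) were. Without D273-10B replicate 1, which enters the shared estimate of the spread, the 8 became 16. There 10.7% of all genes were called in either direction.

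In D273-10B, 8 genes were higher, or 14%, against 13.5% of all genes called higher, which is near the background. They included RPS29A (1.34), RPS18A (1.02), RPS19A (1) and RPS19B (0.97) of the head, where RPS19 also serves processing of the 20S pre-rRNA. They also included RPS23A (1.19), whose protein sets decoding accuracy, RPS15 (1.06), needed for export of the pre-40S particle, and RPS28A (1.07). Within D273-10B the libraries differed widely. RPS23A had 2340, 6950, 12600 and 10800 CPM in D273-10B, so that replicate 1 was the lowest of all 20 libraries and replicates 3 and 4 lay above every library of the other strains. Without replicate 1, 39 genes were called (32.1% of all genes tested in either direction, and a median of 0.91 over the 57), without replicates 3 or 4 the count was 0, and without replicate 2 it was 1. With the length correction RPS18A, RPS19A, RPS19B, RPS23A and RPS15 were at 0.5, 0.49, 0.46, 0.66 and 0.55, and none of these 5 passed with it, with the replicate block or with the library number block (edgeR adjusted p between 0.0715 and 0.183). The count was 20 without CEN.PK2 replicate 4, and 3 to 5 without CEN.PK2 replicates 1 or 3, RM11-1a replicate 4 or W303 replicates 1, 2 or 3. No share over all genes is set beside these counts.

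Set against BY4741 alone, D273-10B had 5 higher genes (RPS29A by 2.14, RPS28A by 1.83, RPS20 by 1.74, RPS25A by 1.42 and RPS9A by 1.08), or 8.77%, where 10.1% of all genes were called higher. Without D273-10B replicate 1, a choice made after seeing the data, 40 genes exceeded their BY4741 level in D273-10B, where 30.7% of all genes were called in either direction. The gene for RPS2, a protein at the mRNA entry, went the other way without passing the test, at -0.34 in D273-10B (SE 0.199, edgeR adjusted p = 0.265), with 2450, 1760, 995 and 1520 CPM. RPS4B was at -0.33 (SE 0.217, edgeR adjusted p = 0.327).

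In RM11-1a, RPS20 alone of the 57 was called lower (1.75%), against 4.51% of all genes called lower. ASC1 encodes the yeast RACK1, a signalling and initiation protein on the head of the subunit, and had the next lowest value, -0.98 (SE 0.351, edgeR adjusted p = 0.0798), which was -1.32 without RM11-1a replicate 2 (adjusted p = 0.0302) and -0.35 without the libraries numbered from 74 (adjusted p = 0.784). Its level was 2980, 3580, 1010 and 1200 CPM in RM11-1a, against 4750, 2610, 7030 and 3980 CPM in CEN.PK2, 3730, 4890, 4190 and 5440 CPM in D273-10B, 3080, 3420, 2980 and 2620 CPM in W303 and 3810, 4480, 4000 and 3580 in BY4741. The 2 low RM11-1a values were replicates 3 and 4, whose library numbers begin with 74, while replicates 1 and 2 lay within the range of CEN.PK2. The count of 1 became 2 without CEN.PK2 replicate 2 or RM11-1a replicate 2 and 0 without RM11-1a replicates 1, 3 or 4. Without RM11-1a replicate 2, 12.6% of all genes were called in either direction.

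Against D273-10B, 7 genes were lower in RM11-1a, among them RPS20 (-1.91), RPS15 (-1.47), RPS19B (-1.33), ASC1 (-1.32), RPS26B (-1.16) and RPS6A (-1.1). That is 12.3%, where 11.5% of all genes were called lower. Without RM11-1a replicate 2, 3 of the 7 passed, RPS20 (-1.92, edgeR adjusted p = 0.0394), ASC1 (-1.67, adjusted p = 0.0153) and RPS19B (-1.44, adjusted p = 0.0498), while RPS15, RPS26B and RPS6A had adjusted p between 0.0609 and 0.0876. Without D273-10B replicate 1, 34 of the 57 genes were lower in RM11-1a than in D273-10B, at a median of -1.08, all 7 of the above among them. In either direction, 25.8% of all genes were called in that fit, and 17.4% without RM11-1a replicate 2. Against CEN.PK2, 2 genes were lower in RM11-1a, RPS20 (-2.07) and RPS12 (-1.16), or 3.51%, where 3.32% of all genes were called lower. Without RM11-1a replicate 2, RPS20 passed there (-2.08, edgeR adjusted p = 0.0445) and RPS12 did not (-1.08, adjusted p = 0.0848). Without D273-10B replicate 1 the 2 became 6, where 9.4% of all genes were called in either direction.

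In W303, RPS20 alone was called higher (1.75%), against 2.66% of all genes called higher, and the count was 0 without W303 replicate 4. Among the other genes RPS2 was at 0.39 (SE 0.189, edgeR adjusted p = 0.218), and RPS23A was at -0.78 (SE 0.433, adjusted p = 0.275). In BY4741, edgeR called 0 of the 57, against 4.84% of all genes in either direction. At an unadjusted p under 0.05 there were 13, with no count over all genes to set beside it. DESeq2 called 8, all lower, where it called 9.01% of all genes in either direction. The lowest values were RPS20 at -1.55 (SE 0.475, edgeR adjusted p = 0.0649) and RPS28B at -1.41 (SE 0.429, adjusted p = 0.0619). The 0 became 8 without D273-10B replicate 1, where 9.98% of all genes were called in either direction. It became 1 without CEN.PK2 replicate 2, RM11-1a replicate 2 or W303 replicate 1.

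The A/B ratios, per length of coding sequence, showed which copy of each pair carried the mRNA. In all 20 libraries, A was the higher in 9 pairs and B in 6, while in the other 9 the order changed between libraries. The same counts over the 37 other A/B pairs in the table, most of them large-subunit genes, were 17, 15 and 5. The median size of the log2 ratio was 0.52 in the 24 pairs and 1.02 in the 37. Within a strain, the SD of a pair's log2 ratio was 0.243 at the median, and the strain means of a pair spanned 0.445.

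The most uneven pairs were RPS9, with B at 11.3 times A over the 20 libraries, and RPS27, with B at 8.58 times A. B also exceeded A 2.84 times in RPS29 and 1.51 times in RPS0, a relative of the laminin receptor. A exceeded B 3.01 times in RPS26, whose protein lines the mRNA exit, 2.62 times in RPS25, used by internal entry sites, and 2.62 times in RPS7. It did so 2.33 times in RPS22 and 2.09 times in RPS14, where Rps14 protein is known to repress splicing of the B copy. Near equality were RPS19 (1), RPS4 (0.938 A to B) and RPS6 (1.12), whose copies share 6.1%, 29.1% and 63.1% of read-length windows. RPS16 (0.833) and RPS1 (0.835) share no window, and RPS14A shares 5.3%. A relation of shared windows to the ratios was not tested.

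**Figure D4:**
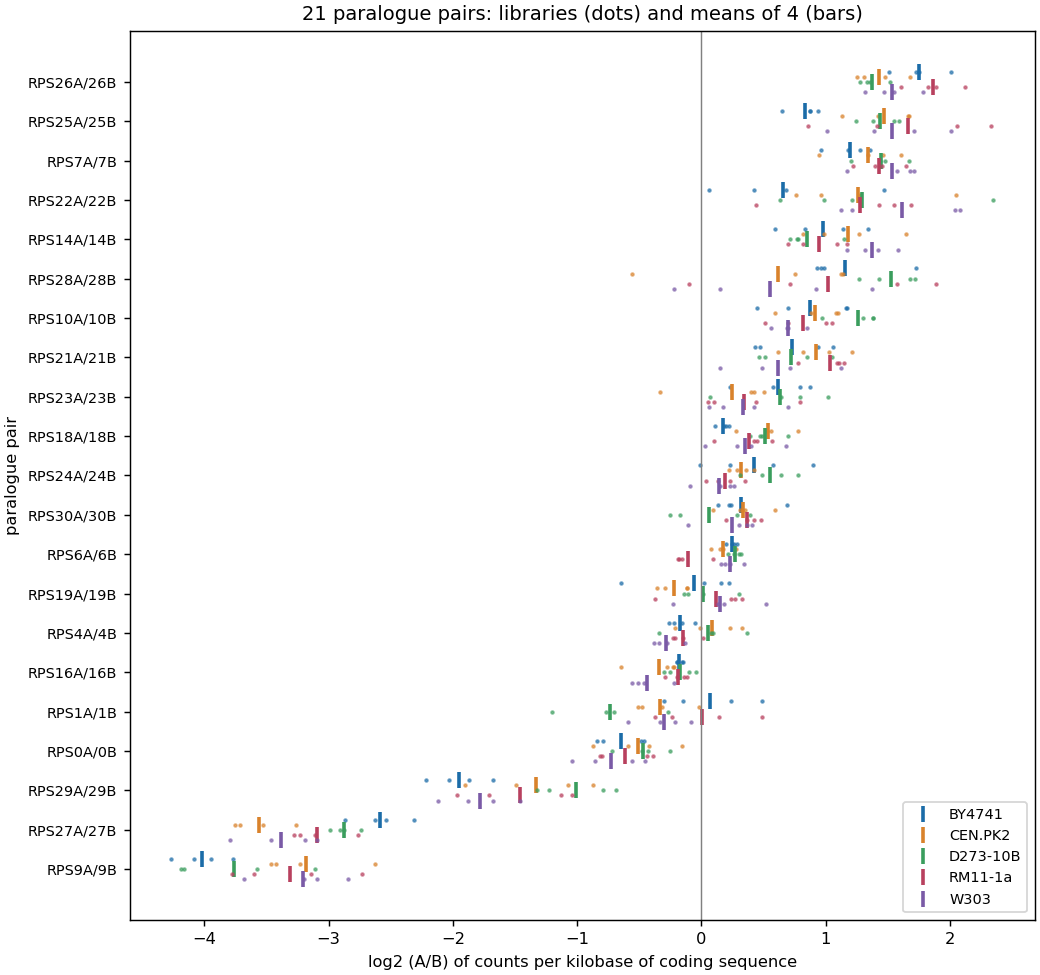
log2 ratio of A to B, in counts per kilobase of coding sequence, for 21 of the 24 small-subunit pairs; dots are libraries and bars the means of 4 libraries of a strain. RPS9, RPS27 and RPS29 lie far on the side of B and RPS26, RPS25 and RPS7 on the side of A in every strain, while RPS28 and RPS22 spread most between libraries.

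A difference of the ratio among strains was called for 2 of the 24 pairs, RPS6 and RPS27 (limma F test, Benjamini-Hochberg adjusted over 61 A/B pairs). Over all 61 pairs the test called 8, or 13.1%, so the share among small-subunit pairs (2 of 24) was not above it. At an unadjusted p under 0.05 there were 11 of the 24, with no count over all 61 to set beside it. The 2 became 8 without RM11-1a replicate 2, 7 without D273-10B replicate 1 and 5 without BY4741 replicate 2 or RM11-1a replicate 3. Over all 61 pairs, 39.3% were called without RM11-1a replicate 2 and 29.5% without D273-10B replicate 1. The share among the 24 was not above these.

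RPS27 encodes a zinc-binding protein of the platform, and its A copy was relatively most abundant in BY4741 and least in CEN.PK2. RPS27A had 161, 197, 107 and 162 CPM in BY4741, against 171, 129, 156 and 301 CPM in CEN.PK2, 127, 258, 393 and 287 CPM in D273-10B, 190, 117, 194 and 176 CPM in RM11-1a and 181, 201, 184 and 193 CPM in W303. RPS27B had 993, 1140, 530 and 1190 CPM in BY4741, against 1970, 1740, 1500 and 3950 CPM in CEN.PK2, 1010, 1940, 2900 and 1920 CPM in D273-10B, 1780, 792, 1680 and 1710 CPM in RM11-1a and 1990, 1710, 1680 and 2660 CPM in W303. The RPS27A levels overlapped in all 5 strains, whereas RPS27B was lower in every BY4741 library than in every CEN.PK2 and W303 library.

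The log2 ratio of RPS27A to RPS27B was -2.63, -2.54, -2.31 and -2.87 in BY4741, a mean of 6 B for each A. It was -3.53, -3.75, -3.26 and -3.71 in CEN.PK2 (11.8 to 1), -2.99, -2.91, -2.88 and -2.74 in D273-10B (7.38 to 1), -3.23, -2.76, -3.11 and -3.28 in RM11-1a (8.55 to 1) and -3.46, -3.09, -3.19 and -3.79 in W303 (10.4 to 1). BY4741 did not overlap CEN.PK2 or W303. It shared its range with D273-10B replicate 4 and with RM11-1a replicate 2, the library with HO counts. The ratio was higher in BY4741 than in the other 4 strains by 0.64 (SE 0.137, limma adjusted p = 0.0036) and lower in CEN.PK2 by -0.58 (SE 0.137, adjusted p = 0.00798). Between strains it was lower in CEN.PK2 than in BY4741 by -0.98 (SE 0.173, limma adjusted p = 0.000488), and lower in W303 than in BY4741 by -0.79 (SE 0.173, adjusted p = 0.00465).

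The BY4741 value held in library groups. Its mean was -2.59 in libraries numbered from 66, where the other 4 strains were between -2.99 and -3.53, and -2.58 in those numbered from 69, where CEN.PK2, D273-10B and W303 were at -3.51, -2.85 and -3.49. The difference over all strains and the BY4741 difference passed in all 26 alternatives. The CEN.PK2 call was lost without CEN.PK2 replicate 2 (-0.51, limma adjusted p = 0.0619) or replicate 4 (-0.53, adjusted p = 0.0564). The pair shares no 75-base window in the reference coding sequence.

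RPS6 encodes the protein that is phosphorylated downstream of TORC1, and RM11-1a was the strain in which its B copy came out ahead. RPS6A had 5890, 5390, 3820 and 3880 CPM in RM11-1a, against 6950, 4420, 10200 and 8690 CPM in CEN.PK2, 4820, 8750, 9890 and 9170 CPM in D273-10B, 6630, 8110, 4870 and 6280 CPM in W303 and 4810, 5660, 5880 and 6200 in BY4741. RPS6B had 6590, 5060, 4350 and 4410 CPM in RM11-1a, against 6190, 4000, 8420 and 8230 CPM in CEN.PK2, 4170, 7290, 8010 and 7330 CPM in D273-10B, 5660, 6430, 4270 and 5640 CPM in W303 and 3930, 4720, 5130 and 5200 in BY4741. Each copy's level overlapped between RM11-1a and the other strains.

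The log2 ratio of RPS6A to RPS6B was -0.16, 0.09, -0.19 and -0.18 in RM11-1a. For CEN.PK2 it was 0.17, 0.15, 0.28 and 0.08, for D273-10B 0.21, 0.26, 0.3 and 0.32. It was 0.23, 0.34, 0.19 and 0.16 in W303 and 0.29, 0.26, 0.2 and 0.25 in BY4741. The 3 negative values were all from RM11-1a, and its replicate 2, the library with HO counts, lay at the low end of the other strains. The ratio was lower in RM11-1a than in the other 4 strains by -0.34 (SE 0.0491, limma adjusted p = 5.34e-05), and by -0.41 without replicate 2 (adjusted p = 1.42e-06). RM11-1a was also lower than each strain alone, by -0.39 against D273-10B (SE 0.0621, limma adjusted p = 0.000223), -0.36 against BY4741 (adjusted p = 0.000492) and -0.28 against CEN.PK2 (adjusted p = 0.00451), and W303 was higher than RM11-1a by 0.34 (adjusted p = 0.00217). Without replicate 2 these 4 differences were -0.45, -0.43, -0.35 and 0.41, with limma adjusted p of at most 9.99e-05. Within libraries numbered from 66, RM11-1a averaged -0.04, against 0.17 to 0.28 in the other 4 strains, and within those numbered from 74, -0.19 against 0.08 in the 1 CEN.PK2 library.

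The RM11-1a difference of RPS6 passed in all 26 alternatives, but the 2 copies share 63.1% of their read-length windows, and of the 637 windows in each only 235 are unique to it. The part of shared reads in this result was not tested.

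**Figure D5:**
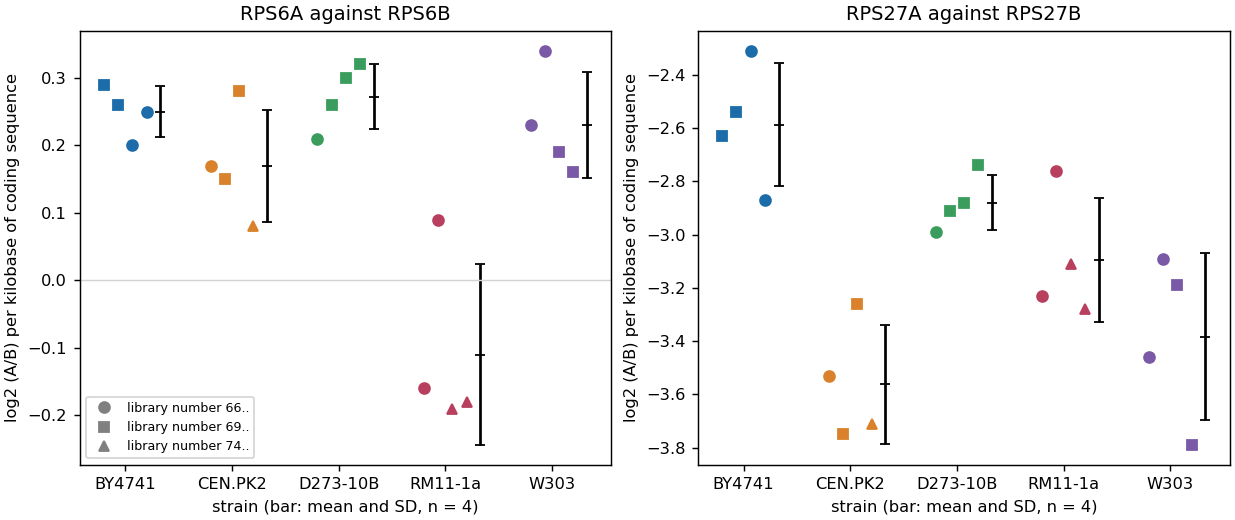
log2 ratio of A to B for RPS6 (left) and RPS27 (right) in each library, with the mean and SD of 4 libraries; symbols give the first digits of the library number. In RPS6, 3 of 4 RM11-1a libraries are below 0 and all other libraries are above it; in RPS27, the BY4741 libraries are between -2.87 and -2.31 and those of CEN.PK2 between -3.75 and -3.26.

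Other pairs were called in comparisons with 1 strain. In BY4741 the test called 4 of the 24 pairs, against 31.1% of all 61: besides RPS27, the ratio was lower in RPS25 (-0.69, SE 0.203, limma adjusted p = 0.0276), RPS9 (-0.65, SE 0.212, adjusted p = 0.0327) and RPS29 (-0.55, SE 0.197, adjusted p = 0.0415). RPS25 stood at 1.78 A for each B in BY4741, against 2.77 in CEN.PK2, 2.71 in D273-10B, 3.17 in RM11-1a and 2.89 in W303. For RPS9, BY4741 had 16.2 B for each A, against 9.09, 13.5, 9.93 and 9.2 in the same order. With the replicate block, the RPS9 and RPS29 calls were lost (limma adjusted p = 0.0569 each), as they were with the library number block (0.0694 and 0.0793) and without the libraries numbered from 74 (0.0756 and 0.114), where RPS25 also missed the threshold (0.0573). The 4 became 9 without RM11-1a replicate 2 and 1 without BY4741 replicates 1 or 3, with no share over all 61 pairs set beside these counts.

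In D273-10B, 3 pairs were called, against 14.8% of all 61. The ratio of RPS29A to RPS29B was higher by 0.63 (SE 0.197, limma adjusted p = 0.0358) and that of RPS10A to RPS10B, at the mRNA entry, by 0.43 (SE 0.133, adjusted p = 0.034), while that of RPS1A to RPS1B, of the platform, was lower by -0.6 (SE 0.17, adjusted p = 0.0256). RPS1A and RPS1B thus stood at 0.6 to 1 in D273-10B, against 0.794 in CEN.PK2, 1 in RM11-1a, 0.809 in W303 and 1.05 in BY4741. The RPS10 call was lost with the replicate block (limma adjusted p = 0.0561). The 3 became 0 without D273-10B replicates 3 or 4, and 1 without D273-10B replicate 2, RM11-1a replicate 1 or W303 replicate 1. They became 5 without D273-10B replicate 1, where 23% of all 61 pairs were called.

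In CEN.PK2, RPS27 was the 1 pair called lower, where 3.28% of all 61 were, and the count was 0 without CEN.PK2 replicates 2 or 4. RPS6 was the 1 pair called lower in RM11-1a, where 4.92% of all 61 were. That count was 2 without BY4741 replicate 3, CEN.PK2 replicate 4, RM11-1a replicate 1 or W303 replicate 1. In W303, 1 of the 24 pairs had a higher ratio by limma's test, where 3.28% of all 61 were higher. Without W303 replicates 1, 2 or 4 or CEN.PK2 replicate 1 the count was 0, and without CEN.PK2 replicate 2 it was 2.

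RPS28 showed the widest change of order within strains. Its log2 ratio was 1.73, 0.99, 0.93 and 0.96 in BY4741 and 1.27, 1.43, 1.72 and 1.68 in D273-10B, where A was always higher. For CEN.PK2 it was 0.75, 1.14, -0.56 and 1.12, for RM11-1a -0.1, 0.71, 1.89 and 1.57, and for W303 0.15, -0.22, 0.92 and 1.37. In each of the last 3 strains, 1 library had more RPS28B than RPS28A. Although both copies differed among strains in level, the ratio was called in no comparison of a strain with the other 4 or of all 5; the strain means spanned 0.97 and the SD within a strain reached 0.897.

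Genes that act on the small subunit or its genes were set beside the 28.4% of all genes that differed over the 5 strains. Of 8 genes for transcription of ribosomal protein genes, 2 differed, IFH1, a coactivator (edgeR adjusted p = 0.0283), and CRF1, its corepressor (adjusted p = 0.01). Both were higher in D273-10B than in the other 4 strains, IFH1 by 1.3 (SE 0.299, edgeR adjusted p = 0.00438) and CRF1 by 2.19 (SE 0.462, adjusted p = 0.00227). Of 12 assembly factors of the 40S subunit, HRR25, a casein kinase, differed (edgeR adjusted p = 0.0262) and was higher in W303 by 1.85 (SE 0.421, adjusted p = 0.0146), and TSR1 was higher in D273-10B by 0.91 (SE 0.266, adjusted p = 0.0209). Of 12 translation factors that bind the 40S subunit, the eIF3 subunits RPG1 and NIP1 differed (edgeR adjusted p = 0.0283 and 0.0311). NIP1 was lower in RM11-1a by -1.29 (SE 0.392, edgeR adjusted p = 0.0386) and SUI3, of eIF2, in D273-10B by -0.87 (SE 0.284, adjusted p = 0.038). For the 7 chaperones of single ribosomal proteins, adjusted p over the 5 strains lay between 0.171 and 0.501. Called at 2 of 8, 1 of 12, 2 of 12 and 0 of 7 over the 5 strains, none of the 4 lists exceeded the share of all genes. The single-strain calls were lost in 1 of 28 alternatives for CRF1, 3 for IFH1, 3 for TSR1, 4 for HRR25, 8 for SUI3 and 13 for NIP1. NIP1 was among those lost without RM11-1a replicate 2 (-1.29, edgeR adjusted p = 0.071), and TSR1 without D273-10B replicate 1 (0.68, adjusted p = 0.0782).

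Upstream sequences were searched for letters that mark ribosomal protein promoters. Within 600 bases before the start codon, on either strand, CCCATAC or CCCGTAC, which are cores of the Rap1 site, occurred in 17 of the 57 genes (29.8%). They occurred in 31 of the 82 large-subunit genes (37.8%) and in 6.57% of 5999 protein-coding genes. GACGCA, associated with Fhl1, occurred in 7 of the 57 (12.3%), 16 of the 82 (19.5%) and 13% of all. Among the genes above, RPS6A, RPS6B and RPS27B held a Rap1 core and RPS27A did not, while RPS20 held GACGCA and no Rap1 core. Of the other uneven pairs, neither copy of RPS9, RPS29, RPS0, RPS26, RPS25 or RPS14 held a Rap1 core. RPS7A and RPS22A held one, and RPS7B and RPS22B did not. A relation of the motif to the A/B ratios was not tested. A match describes the letters only, and these windows are of the reference genome, not of the 5 strains.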

How the data were processed

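RNA was sequenced in 20 libraries of 5 yeast strains, from Smart-seq2 cDNA (made by reverse transcription and PCR, without molecular identifiers or strand marking) cut with Tn5, as single reads of 75 bases per the labels' protocols. The authors deposited 1 table of raw read counts per gene for 7127 genes. STAR and Salmon are named, without versions or roles, in the submitters' processing notes, and the genome build and the handling of reads that fit several genes are not given in the sources used here. The table's annotation header names Ensembl release 109. Columns were matched to libraries by the library number in their names, since the replicate numbers in the RM11-1a column names repeat and were not used, and 0 columns were left out.

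The 57 genes and the gene lists were chosen with earlier results of these data known. Levels were tested on the deposited counts with edgeR 4.0.16 (quasi-likelihood F test, TMM scaling, filterByExpr keeping 6119 genes, strain as the 1 factor, 15 residual degrees of freedom) in R 4.3.3. Each strain was set against the mean of the other 4, and pairs of strains came from the same fit. A/B ratios were log2 ratios of counts plus 0.5, per length of coding sequence, tested with limma 3.58.1 over all 61 A/B pairs. P-values were adjusted by Benjamini-Hochberg over all genes or pairs tested, with a threshold of 0.05. The SE of an edgeR log2 fold change is its size divided by the square root of F. CPM and shares use the library total, and RPKM divides CPM by kilobases of coding sequence. The steps were tested on simulated data, with 200 changed genes.

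Library values are given for the 6 genes with the smallest p over the 5 strains and for pairs whose ratio passed the threshold over the 5 strains. The exception is RPS9A in W303 replicate 2, given only as the lowest of that strain. Other genes are given by range and count or as the largest and smallest of a group, and HO, LEU2, MET17, STE2 and MFA2 as checks of the labels. RPS23A, ASC1, RPS2 and the RPS28 ratio were given library values after they were seen. Some genes and pairs enter the counts and are not reported individually here. Gene names and sequences come from RefSeq R64, which matched 6047 of the 7127 gene IDs and all 57 members. No genome of the individual strains was used. Alternatives were DESeq2 1.42.0 (its size factors in edgeR, and its own test), no filter, a block for the replicate number or for how the library number begins, a correction for exon length (a natural spline with 4 degrees of freedom, with lengths for 94.2% of genes), a pseudocount of 5, an edgeR interaction of strain and paralogue, and leaving out each library. Leaving out the libraries numbered from 74, or those numbered 6986 to 6988, and the fits of pairs of strains without RM11-1a replicate 2 or D273-10B replicate 1 were added after seeing the data, as were the alternatives for ASC1 in RM11-1a and for the other gene lists.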

Additional observations from a re-analysis of the deposited data

Results flagged for a closer look

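In groups of 4 libraries, a value stood apart when its gap to the nearest other value, divided by the range of the group, exceeded Dixon's 95% critical value for 4 values. This was so in 4 of 90 groups, and chance gives about 1 in 20. RPS28B had 550 CPM in RM11-1a replicate 1, against 218 to 225 CPM in the other 3 RM11-1a libraries. RPS28A had 1060 CPM in W303 replicate 4, against 583 to 627 CPM in the other W303 libraries. RPS27B had 792 CPM in RM11-1a replicate 2, against 1680 to 1780 CPM in the rest of that strain. The log2 ratio of RPS6A to RPS6B was 0.09 in RM11-1a replicate 2, against -0.19 to -0.16 in the rest, and this is the library with HO counts. Causes were not tested.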

How the results depend on the processing

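No called result changed direction, though the W303 median of the 57 genes, which was not tested, changed sign with the length correction (0.05, against -0.31 as reported). RPS20 and RPS28A over the 5 strains, RPS6 in RM11-1a and RPS27 in BY4741 kept their calls in every alternative run. The counts of called genes did not, and the cause was not tested. Over the 5 strains, 11 genes became 29 with the DESeq2 test, 20 with the length correction, 5 with the library number block and 3 without the libraries numbered from 74. Of all genes, 41.4%, 37.1%, 19.4% and 16.2% were called in the same order, against 28.4% as reported. The same settings, in this order, gave 6, 4, 1 and 0 for 3 genes in CEN.PK2, 11, 3, 2 and 17 for 8 in D273-10B, 2, 11, 0 and 0 for 1 in RM11-1a and 8, 3, 0 and 0 for 0 in BY4741, while W303 stayed at 1. DESeq2 size factors gave 1 gene in CEN.PK2. Without the libraries numbered from 74, called pairs numbered 5 over the 5 strains (2 with all), 0 in CEN.PK2 and 1 in BY4741, and the library number block gave 4 over the 5 strains. Pseudocount, filter and the interaction fit kept the pair counts within 1. Summed levels rescaled by TMM or length correction are on a percent scale but are not shares of a library's counts. With TMM the level was 24.1% in CEN.PK2 (a share of 19.9% as reported) and 23.5% in D273-10B (19.8%). It reached 41.4% in CEN.PK2 replicate 4 (27.6%). It was 14.2% with TMM and 16.5% with length correction in W303 (15.4% as reported), and 14% with TMM in BY4741 (15% as reported). With length correction it was 19.9% in CEN.PK2, 19.3% in D273-10B, 12.5% in RM11-1a (14% as reported) and 15.7% in BY4741.

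Over all genes tested, the 1736 calls over the 5 strains were 1000 without the libraries numbered from 74, and there CEN.PK2 had 119 (298 with all), RM11-1a 58 (667) and BY4741 185 (296). The library number block gave 276 in RM11-1a. The DESeq2 test and the length correction gave 481 and 488 calls in CEN.PK2, 555 and 391 in W303 (252 as reported) and 549 and 561 in BY4741. They gave 969 and 971 in RM11-1a and 1263 and 1181 in D273-10B (1109 as reported).

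Leaving out 1 library at a time gave 3 to 49 genes over the 5 strains, 0 to 8 genes in CEN.PK2, 0 to 39 genes in D273-10B, 0 to 2 genes in RM11-1a, 0 to 1 in W303 and 0 to 8 in BY4741. Called pairs ranged over 2 to 8, 0 to 1, 0 to 5, 1 to 2, 0 to 2 and 1 to 9 in the same order. Shares over all genes or pairs are given above for only some of these fits. The summed share of CEN.PK2 ranged over 17.4% to 21.9% and that of D273-10B over 17.9% to 22.7%, with 13.4% to 14.6% in RM11-1a, 15.1% to 15.9% in W303 and 14.7% to 15.3% in BY4741.

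Replicate numbers did not pair the libraries: 40 correlations between libraries of the same number ran between -0.36 and 0.38 (median -0.02), 13 were over 0.1, and 4 of 20 libraries were closest to their own number. With the replicate block, 8 genes were called over the 5 strains, 0 in CEN.PK2, 2 in D273-10B and 1 in BY4741. Called pairs were then 2 in BY4741 and 0 in W303. No libraries of a strain were duplicates, with chi-square per degree of freedom of 13.4 to 870 over 30 pairs of libraries. The lowest count of any of these mRNAs in a library was 169, and libraries were not compared at matched depth.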
